A study of Mus musculus with 6 samples.

Results

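The genes described here are 10 components of canonical Wnt signaling, of 21755 protein-coding genes of the mouse annotation GENCODE vM21. They are the 4 TCF/LEF transcription factors Tcf7l2, Tcf7l1, Tcf7 and Lef1, together with Ctnnb1, Axin1, Axin2, Apc, Lrp5 and Lrp6. The genes were chosen on measured values, since peak calls at them in these same libraries were already known. The peaks at the 10 genes are therefore given as a description, with no test. Each gene was read in a window of its gene body and 50 kb either side, and its promoter was the sequence within 1 kb of any of its transcription start sites (TSS).

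The study mapped H3K27ac, the acetylated form of histone H3 lysine 27 that marks promoters and enhancers in use, in alveolar macrophages (AMs), the phagocytes that reside in the air spaces of the lung. Cells were sorted by flow cytometry from the bronchoalveolar lavage of wild-type C57BL/6J mice, 9-wk-old per the study's methods, with no treatment. The assay was HT-ChIPmentation, in which the transposase Tn5 adds sequencing adapters to chromatin held on antibody-coated beads. An antibody from Cell Signaling served for 2 replicate libraries and one from Active Motif for 1 library. The other 3 libraries were inputs, used here only in so far as the authors called peaks against them. Nothing in the labels says that the replicates came from separate mice, and their spread may be technical.

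In canonical Wnt signaling a Wnt protein binds a Frizzled receptor together with Lrp5 or Lrp6. Without that signal, a destruction complex built on Axin and Apc marks β-catenin for degradation. With it, β-catenin accumulates, enters the nucleus and joins TCF/LEF factors on DNA, where these factors otherwise act with corepressors of the TLE family. In the hematopoietic system Tcf7 and Lef1 are best known from T cells.

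Cell Signaling replicate 1 had 56175 peaks, replicate 2 had 49139 and the Active Motif library 36364, with median widths of 267, 629 and 341 bp in that order. Replicate 2 thus held fewer and wider peaks than replicate 1. Its wide peaks often cover several peaks of the other lists, so peak counts at a gene are not amounts of acetylation. The fold printed below is the caller's enrichment over background at a peak's summit, and its median over all peaks was 5.38 in replicate 1, 7.19 in replicate 2 and 5.97 with the Active Motif antibody. Folds were read within a library, because the antibodies cannot be told apart from differences in run, depth or sonication. Where no peak is given, none passed the caller's threshold in that library, which depends on read depth, a value not used here. Promoters of the AM markers fixed for a check held peaks for 10 of 10 genes in replicate 1, 10 of 10 in replicate 2 and 9 of 10 with the Active Motif antibody, where Krt79 had none. T cell markers had promoter peaks for 0 of 8 genes in each library, and endothelial and fibroblast markers for 0 of 7. B cell markers had them for 2, 2 and 1 of 5 genes, and alveolar epithelial markers for 2, 1 and 0 of 7. Beside these counts, the share of all protein-coding genes with a promoter peak was 48.2% in replicate 1, 49.2% in replicate 2 and 41.3% with the Active Motif antibody. The B cell marker Cd22 had folds of 26.5 in replicate 1, 20.3 in replicate 2 and 9.35 with the Active Motif antibody. Ms4a1, also a B cell marker, had 4.18 in replicate 1, 41.2 in replicate 2 and no Active Motif peak. Airway epithelial markers had promoter peaks for 4 of 5 genes in replicate 1 alone, with folds up to 8.07 at Scgb3a2, the club cell secretoglobin.

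The promoter sequences of 4 of the genes are shown first, because all are CpG-rich, yet just one of them was acetylated. Each line gives the 300 bp around a start site from RefSeq on GRCm38.p6, the assembly of mm10, from 250 bases before to 50 after the start in the direction of transcription, with CpG dinucleotides in capitals. The Tcf7l2 promoter (chr19:55741560-55741859, plus strand) lay under peaks in all 3 libraries. Those of Tcf7l1 (chr6:72788996-72789295, minus strand), Lef1 (chr3:131110073-131110372, plus strand) and Axin2 (chr11:108920099-108920398, plus strand) lay under none in any library.
Tcf7l2: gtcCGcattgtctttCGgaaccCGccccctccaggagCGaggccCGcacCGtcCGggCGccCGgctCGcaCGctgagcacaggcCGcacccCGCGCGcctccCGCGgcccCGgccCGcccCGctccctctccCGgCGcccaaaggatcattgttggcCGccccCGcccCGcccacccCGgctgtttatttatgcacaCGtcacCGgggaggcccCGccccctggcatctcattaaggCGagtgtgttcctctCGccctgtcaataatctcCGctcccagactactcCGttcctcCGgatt
Tcf7l1: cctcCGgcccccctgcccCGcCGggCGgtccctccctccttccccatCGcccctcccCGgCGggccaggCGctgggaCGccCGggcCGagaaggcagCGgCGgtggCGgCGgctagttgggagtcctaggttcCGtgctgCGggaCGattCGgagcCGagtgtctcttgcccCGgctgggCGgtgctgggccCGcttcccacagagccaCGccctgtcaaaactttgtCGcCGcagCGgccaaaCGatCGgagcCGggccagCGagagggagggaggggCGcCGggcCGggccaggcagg
Lef1: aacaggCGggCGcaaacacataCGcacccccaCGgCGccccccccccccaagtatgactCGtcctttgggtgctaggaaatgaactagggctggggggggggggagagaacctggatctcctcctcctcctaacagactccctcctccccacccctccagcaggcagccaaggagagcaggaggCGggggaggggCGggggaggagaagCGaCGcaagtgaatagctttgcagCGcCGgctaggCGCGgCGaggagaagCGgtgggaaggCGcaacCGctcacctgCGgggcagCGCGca
Axin2: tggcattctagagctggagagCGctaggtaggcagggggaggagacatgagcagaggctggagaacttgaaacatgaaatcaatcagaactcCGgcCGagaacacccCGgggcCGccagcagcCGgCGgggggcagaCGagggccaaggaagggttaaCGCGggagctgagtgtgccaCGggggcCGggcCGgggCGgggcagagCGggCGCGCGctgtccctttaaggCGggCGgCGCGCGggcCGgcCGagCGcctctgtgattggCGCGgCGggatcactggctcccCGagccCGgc

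The acetylated Tcf7l2 window held 34 CpG dinucleotides, against 34 at Tcf7l1, 21 at Lef1 and 31 at Axin2. The median over the 32851 RefSeq promoters of the same length was 7, so all 4 windows were CpG-rich, and without a peak Tcf7l1 held as many CpG dinucleotides as Tcf7l2. RefSeq windows were matched for 6 of the 10 genes, the others being Tcf7 with 45 and 17 CpG dinucleotides in its windows, under no peak, and Ctnnb1. The Ctnnb1 window with 51 CpG dinucleotides lay under peaks in all 3 libraries, and that with 46 in both Cell Signaling replicates only. Not every window was CpG-rich: a second Tcf7l2 window, inside the gene, held 7 and lay under peaks in both replicates only. Further Lef1 windows held 18, 8 and 5, under no peak. The TCF/LEF motif, searched as CTTTGAT on both strands, was in no window of these genes, against 3.73% of all RefSeq promoters. The motif of RBPJ, the Notch effector, searched as GTGGGAA, was in the Tcf7l1 window and in both overlapping Lef1 windows at the first start sites, against 6.38% of all promoters. A match of letters is no evidence of binding, and its absence from a window says nothing of the factor.

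Promoter acetylation divided the genes evenly. Tcf7l2, Ctnnb1, Axin1, Apc and Lrp6 had a promoter peak in all 3 libraries, which is 5 of 10 genes, against 41.2% of all protein-coding genes. Tcf7l1, Tcf7, Lef1 and Axin2 had none in any library. Per library, the count was 5 of 10 in replicate 1 (48.2% of all genes), 6 of 10 in replicate 2 (49.2%) and 5 of 10 in the Active Motif library (41.3%). These shares were near those of all genes, so the number of acetylated promoters is no feature of the genes as a set, and what follows concerns which ones they are. Lrp5 was the gene called in a single library.

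**Figure D1:**
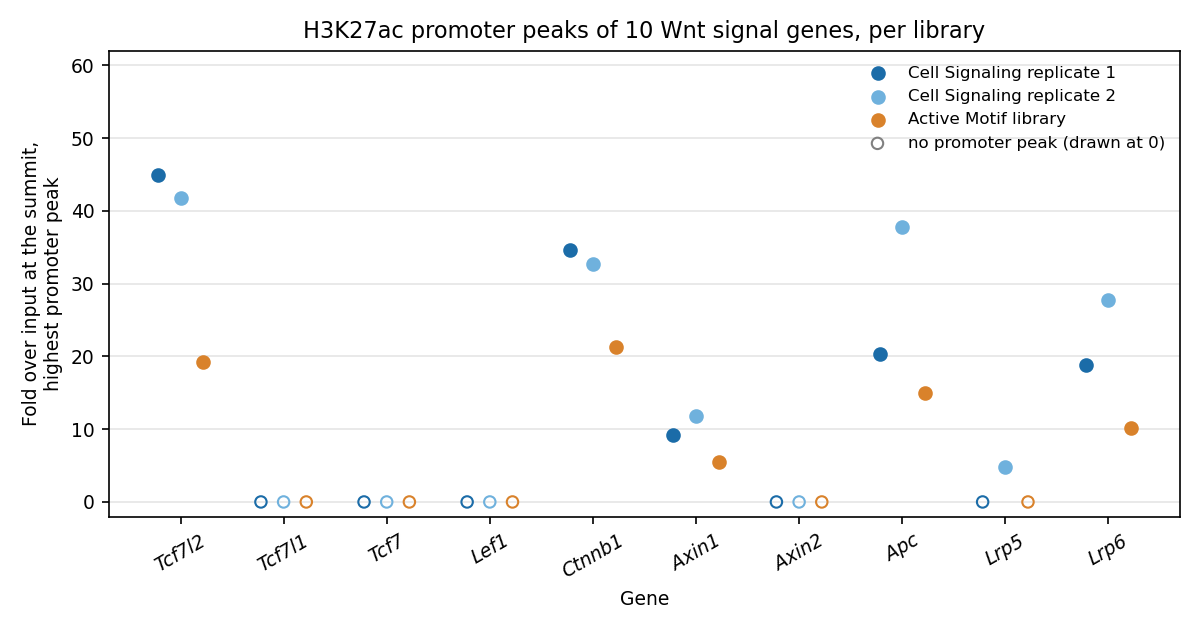
The vertical axis gives the fold over input at the summit of each gene's highest promoter peak and the horizontal axis the 10 genes, with 1 point per library and open circles at 0 where no promoter peak was called. Tcf7l2 and Ctnnb1 stand highest in replicate 1 (45.0 and 34.6), and Tcf7l1, Tcf7, Lef1 and Axin2 have open circles in all 3 libraries. In replicate 2 Apc (37.7) stands above Ctnnb1 (32.8), and in the Active Motif library Ctnnb1 (21.3) stands above Tcf7l2 (19.2).

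Tcf7l2, which encodes the factor TCF4 that carries β-catenin to DNA in many tissues, was the TCF/LEF gene with acetylation. Its highest promoter peak had a fold of 45.0 in replicate 1, 41.8 in replicate 2 and 19.2 with the Active Motif antibody. These values ranked 1145 of 10494, 1652 of 10707 and 1708 of 8979 among genes with a promoter peak in the same library. The summit lay just upstream of the nearest Tcf7l2 start, at −0.638 kb in replicate 1 and −0.558 kb in replicate 2. The peak was 7.97 kb wide in replicate 1 and 8.79 kb in replicate 2, and 7 separate Active Motif peaks fell in the merged stretch. Of its 9 annotated start sites, 8 lie within the first 0.522 kb and share this peak. The remaining start, 154 kb inside the gene, had weak peaks (fold 4.61 in replicate 1, 4.50 in replicate 2) and no Active Motif peak. The protein-coding genes whose promoter folds over the 3 libraries lay nearest to those of Tcf7l2 were Vps4b, Zfp810 and Smim14, at distances of 0.04, 0.05 and 0.05 in log2 fold among 8961 genes with a promoter peak in all 3. This likeness is over 3 libraries only.

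Beyond its promoter, Tcf7l2 (chr19:55741820-55933654, plus strand, 192 kb long) held most of the peaks of all 10 windows. Its window had 82 peaks in replicate 1, 74 in replicate 2 and 77 with the Active Motif antibody. Those were 54.3%, 58.7% and 67.5% of the 151, 126 and 114 peaks at the 10 genes in these libraries. Over all protein-coding genes the median was 4 peaks per window in replicate 1, 4 in replicate 2 and 2 with the Active Motif antibody. Tcf7l2 stood at rank 4, 5 and 2 of 21755 genes by this count, but its window is long and windows of neighbouring genes can share peaks. As a share of the gene body covered, which takes length into account, it reached 38.2% in replicate 1, 56.6% in replicate 2 and 20.2% with the Active Motif antibody, at rank 764, 586 and 1062. The gene was thus high among all genes on both measures, and much further up by peak count than by covered share.

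**Figure D2:**
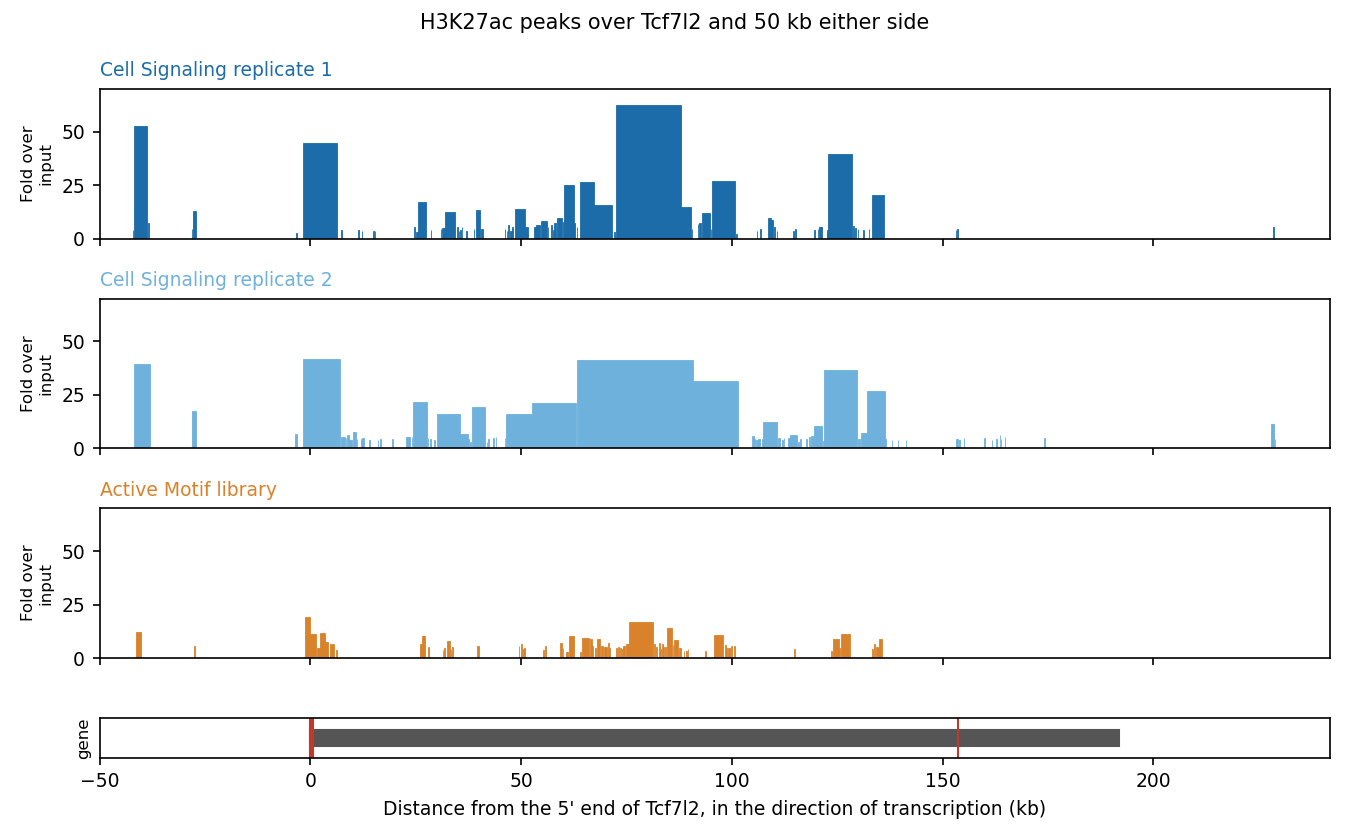
Each upper panel shows the Tcf7l2 peaks of 1 library as boxes, with their true width on the horizontal axis (distance from the 5' end, kb) and the fold over input at the summit as height. The bar at the bottom is the gene, with start sites in red; tall boxes stand at −40.4 kb, at the 5' end and around 78.1 kb in all 3 libraries, and the far end of the gene is almost empty.

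The acetylation was unevenly spread along the gene. Cut into 4 equal parts from the 5' end, the gene was covered by peaks over 32.8%, 83.8%, 35.8% and 0.521% of its bases in replicate 1. In replicate 2 the shares were 60.3%, 98.7%, 63.9% and 3.56%, and in the Active Motif library 17.0%, 44.8%, 19.2% and 0. All 3 libraries thus had their highest coverage in the second part, between 48.0 and 95.9 kb, and little or none in the last, which holds most of the 13 exons of the principal transcript Tcf7l2-202.

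Shared Cell Signaling regions, the merged stretches that hold a peak of both replicates, numbered 25 in the Tcf7l2 window. They comprised 2 at its promoters, 19 in the gene body and 4 in the flanks, with 0 at promoters of other protein-coding genes. By this count Tcf7l2 was at rank 27 of 21755 genes, where the median gene had 2 regions. In all 19 regions of the gene body the replicate 1 summit was intronic. By that summit, the third intron of Tcf7l2-202 (74.6 kb long) held 10 shared regions and the fourth (90.6 kb) held 10, the weak internal promoter included. Tcf7l2 was the nearest protein-coding start for all 25. An Active Motif peak lay in 13 of the 25 regions (52.0%), against 61.5% of the 29277 shared regions of the genome.

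The longest stretch was a run of 5 consecutive shared regions over 55.3 kb (chr19:55787932-55843202), 46.1 to 101 kb from the 5' end, with gaps of 259, 156, 369 and 110 bp between them. Peaks covered 83.4% of it in replicate 1, 98.4% in replicate 2 and 44.6% with the Active Motif antibody. The number of peaks in it was 31 in replicate 1, 5 in replicate 2 and 49 with the Active Motif antibody. The library with the fewest peaks there had the most covered bases.

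Its tallest region, 78.1 kb from the 5' end, was the strongest Tcf7l2 peak outside the promoter in every library. The fold was 62.7 in replicate 1, 41.4 in replicate 2 and 17.0 with the Active Motif antibody. In replicate 1 that was above the promoter's own 45.0, and in replicate 2 and the Active Motif library it was just under that of the promoter (41.8 and 19.2). The region spanned 27.4 kb (chr19:55805101-55832506), a single peak in replicate 2, 6 peaks in replicate 1 and 32 with the Active Motif antibody, and the summits of the replicates lay 46 bp apart.

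Next in replicate 1 came a region upstream of the gene, at −40.4 kb, with folds of 52.7 in replicate 1, 39.4 in replicate 2 and 12.2 with the Active Motif antibody, and replicate summits 1 bp apart. It reached within 1 kb of a start of the long noncoding RNA gene 4930552P12Rik, so it may be counted as that gene's promoter. Inside Tcf7l2, the region at 127 kb had folds of 39.6, 36.8 and 11.1 in the same order of libraries, and the one at 96.3 kb had 26.9, 31.7 and 10.7. The one at 96.3 kb lay by the intronic noncoding gene Ppnr. Regions at 61.6 kb (25.4 in replicate 1, 21.2 in replicate 2, 10.5 in the Active Motif library) and 135 kb (20.6, 26.9 and 8.95) followed. Each of these 6 regions was called in all 3 libraries, whereas the 12 Tcf7l2 regions with no Active Motif peak had folds of at most 12.4 in either replicate.

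A pair of intronic summits is printed because one has the highest fold at Tcf7l2 outside its promoter and the other is the one with a TCF/LEF match among the 21 Tcf7l2 summits searched, those over 1 kb from every start site. Both are the 200 bp around the replicate 1 summit on the plus strand of mm10, at 78.1 kb (chr19:55819849-55820048) and at 33.0 kb (chr19:55774706-55774905), with matches to TCF/LEF (CTTTGAT) or AP-1 (TGANTCA) on either strand in capitals.
Tcf7l2 78.1 kb: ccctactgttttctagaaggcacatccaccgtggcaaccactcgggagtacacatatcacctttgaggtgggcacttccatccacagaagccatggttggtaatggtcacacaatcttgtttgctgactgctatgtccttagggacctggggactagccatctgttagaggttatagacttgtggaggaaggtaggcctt
Tcf7l2 33.0 kb: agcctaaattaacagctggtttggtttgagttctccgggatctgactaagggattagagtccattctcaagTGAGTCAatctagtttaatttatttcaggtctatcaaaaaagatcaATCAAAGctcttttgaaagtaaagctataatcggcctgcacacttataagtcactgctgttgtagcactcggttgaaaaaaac

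The region at 33.0 kb had folds of 12.7 in replicate 1, 15.9 in replicate 2 and 8.03 with the Active Motif antibody, and its window held an AP-1 match as well as the TCF/LEF match. The window at 78.1 kb held neither. Over all 10 genes, 35 shared regions lay over 1 kb from every start site, 21 of them at Tcf7l2. The TCF/LEF motif was in 1 of the 35 windows (2.86%), against 2.64% of the 17851 such regions of the genome. For motifs of macrophage factors, that of C/EBP (TTNNGCAA) was in 17.1% of the 35, against 11.1% of all. The motif of PU.1 (GAGGAAGT) was in 2.86%, against 4.98%, AP-1 in 8.57%, against 9.65%, RUNX (TGTGGTT) in 5.71%, against 6.59%, and STAT (TTCNNNGAA) in 11.4%, against 7.40%. RBPJ was in 0 of 35, against 4.72%. In the 21 Tcf7l2 windows alone, C/EBP was in 9.52% and STAT in 4.76%, both below the shares of all such regions. TCF/LEF was in 4.76% of these 21, which is 1 window. C/EBP matches outside Tcf7l2 included Lrp5 flank regions whose nearest protein-coding start was that of Ppp6r3. Each share rests on 0 to 6 windows.

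The other TCF/LEF genes were bare over their whole length. Tcf7l1, which encodes the factor TCF3 that acts mainly as a repressor, had 0 peaks in its 163 kb gene body (chr6:72626378-72789254, minus strand) in every library. The peak nearest to one of its start sites was 91.5 kb away in replicate 1, 80.0 kb in replicate 2 and 109 kb in the Active Motif library. Its window held 5 peaks in replicate 1, 2 in replicate 2 and 2 with the Active Motif antibody, all beyond the 3' end. The strongest of these lay at the promoter of Tgoln1, a gene of the trans-Golgi network, with folds of 30.4 in replicate 1, 39.9 in replicate 2 and 19.2 with the Active Motif antibody. A weaker region at the adjoining starts of Elmod3 and Retsat had 6.53 in replicate 1 and 9.82 in replicate 2.

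Tcf7, which encodes TCF1, a factor of T cell development, was likewise without a peak in its gene body (chr11:52252371-52283014, minus strand). Each peak of its window was at the promoter of Skp1a, a subunit of SCF ubiquitin ligases, 51.3 kb from the Tcf7 5' end in replicate 1. The Skp1a peak had a fold of 42.7 in replicate 1, 43.0 in replicate 2 and 17.5 with the Active Motif antibody. Counting peaks in the window without regard to their nearest gene would therefore have given Tcf7 a peak as strong as that of the Tcf7l2 promoter.

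Lef1, which encodes the lymphoid enhancer factor, had no peak in its gene body (chr3:131110471-131224356, plus strand). A weak flank region lay 136 kb from the 5' end, past the 3' end of the gene (fold 3.86 in replicate 1, 3.16 in replicate 2, no Active Motif peak). At the far edge of the window, at the promoter of Hadh, a gene of mitochondrial fatty acid oxidation, replicate 2 had folds of 7.81 and 5.79 and the Active Motif library 4.69 and 4.27. The peak nearest to a Lef1 start was 134 kb away in both replicates and 159 kb away in the Active Motif list.

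**Figure D3:**
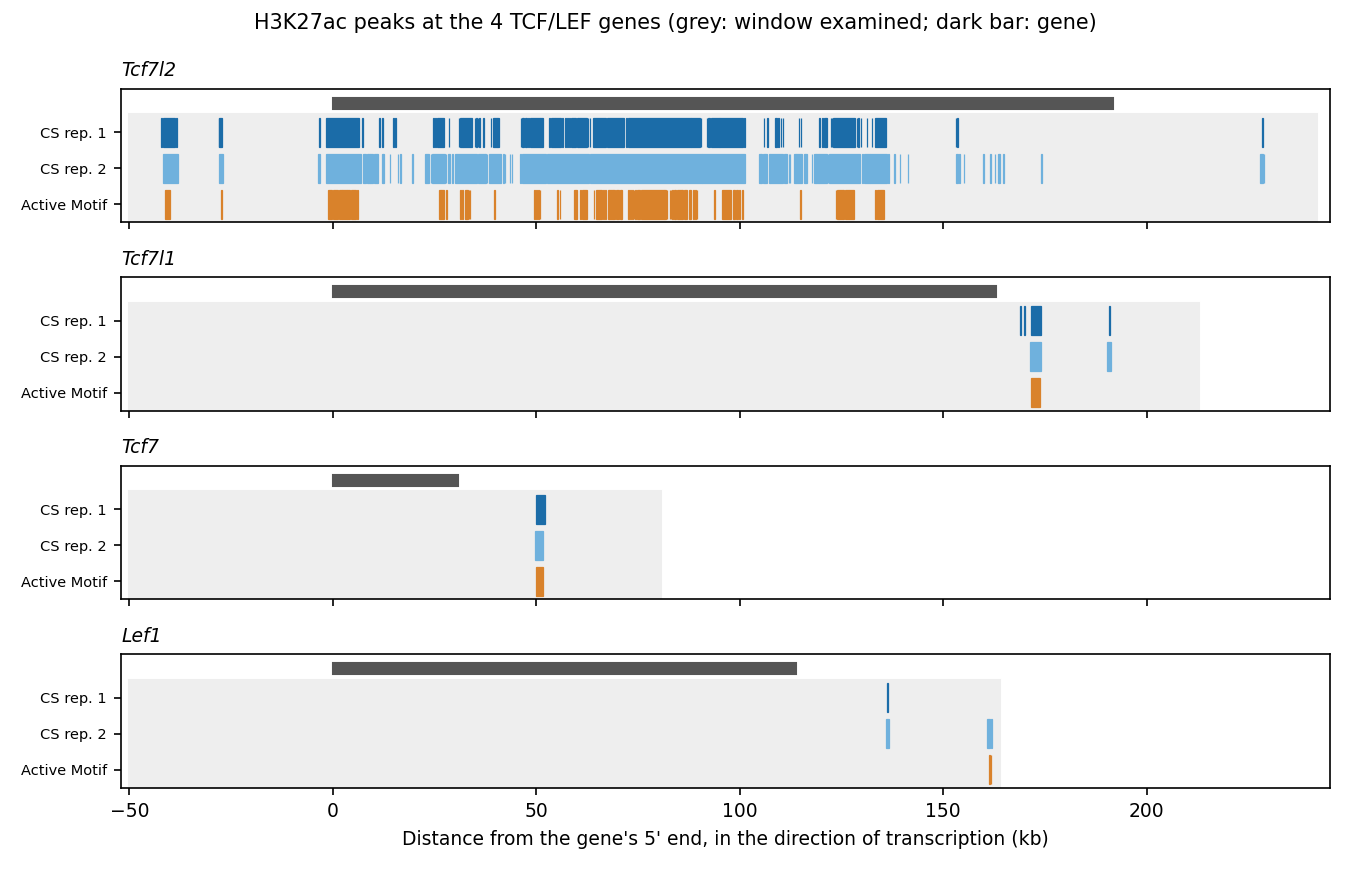
Peaks of the 3 libraries (rows) are drawn as boxes of true width against the distance from each gene's 5' end in kb, for Tcf7l2, Tcf7l1, Tcf7 and Lef1 on 1 scale, with the window shaded in grey and the gene as a dark bar. Boxes lie under the gene bar only for Tcf7l2 (72, 66 and 73 gene body peaks in replicate 1, replicate 2 and the Active Motif library).

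Ctnnb1, which encodes β-catenin, the coactivator that TCF/LEF factors bind, was the other gene with acetylation deep into its body (chr9:120929216-120960507, plus strand). Its highest promoter peak had a fold of 34.6 in replicate 1, 32.8 in replicate 2 and 21.3 with the Active Motif antibody. By rank among genes with a promoter peak that was 2298, 3766 and 1253, so Ctnnb1 stood above Tcf7l2 in the Active Motif library and below it in both replicates. The replicate 1 summit lay inside an intron, 5.84 kb from the annotated 5' end. The summit was at 5.63 kb in replicate 2 and 5.70 kb in the Active Motif library. The peak was called a promoter peak through starts at 4.18 and 4.36 kb.

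At the annotated 5' end of Ctnnb1, by contrast, just 110 bp of the window were covered, and in replicate 2 alone, by the edge of a separate region. That region had its summit at −2.11 kb in replicate 1, −2.04 kb in replicate 2 and −1.92 kb in the Active Motif list, with folds of 23.4, 31.5 and 11.5. Ctnnb1 was therefore the gene whose call depended on which start sites were used. Its gene body was covered over 32.2% in replicate 1, 46.8% in replicate 2 and 19.4% with the Active Motif antibody, close to the shares of Tcf7l2 in a gene of 31.3 kb. The region at the inner starts spanned 12.2 kb, as 14 peaks in replicate 1, 1 in replicate 2 and 12 with the Active Motif antibody. A weaker flank region at −35.2 kb had 6.92 in replicate 1 and 11.8 in replicate 2.

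Of the scaffolds of the destruction complex, Apc and Axin1 had promoter peaks and Axin2 had none. Apc (chr18:34220924-34322552, plus strand), the tumor suppressor that holds β-catenin in the complex, had a promoter fold of 20.4 in replicate 1, 37.7 in replicate 2 and 14.9 with the Active Motif antibody. By rank among genes with a promoter peak, Apc stood at 4930 of 10494 in replicate 1, 2535 of 10707 in replicate 2 and 2800 of 8979 in the Active Motif library. An intronic region 8.53 kb inside Apc had 8.46 in replicate 1, 13.3 in replicate 2 and 4.69 with the Active Motif antibody. The start at 26.8 kb had 3.46 in replicate 1, 5.97 in replicate 2 and no Active Motif peak. The strongest peak of its window was at the promoter of Srp19, a subunit of the signal recognition particle, with 49.2, 51.5 and 24.7 in the same order, and peaks at Reep5 lay at the window's end.

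Axin1 (chr17:26138688-26195811, plus strand), the limiting scaffold of the complex, had the lowest promoter folds of the 5 acetylated genes. Its folds were 9.23 in replicate 1, 11.9 in replicate 2 and 5.54 with the Active Motif antibody, at rank 8126 of 10494, 9094 of 10707 and 7854 of 8979. Peaks covered 1.37% of its gene body in replicate 1, 1.32% in replicate 2 and 0.572% with the Active Motif antibody. No shared region lay deeper in the gene than the promoter. The strongest peak of its window was at the promoter of the neighbour Fam234a, with 15.8 in replicate 1, 19.2 in replicate 2 and 9.38 with the Active Motif antibody, and weaker ones at Mrpl28 and Decr2 were called in both replicates only.

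Axin2 (chr11:108920349-108950783, plus strand), a scaffold like Axin1 and a widely used target gene of Wnt signaling, had 0 peaks in its window in every library. It was the one gene of the 10 of which that was true, as it was of 22.9% of all protein-coding genes. The nearest peak to the gene was 381 kb away in replicate 1, 362 kb in replicate 2 and 411 kb in the Active Motif library. Axin2 thus lay in a long stretch in which none of the lists had a peak.

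The coreceptors Lrp5 and Lrp6, which bind Wnt proteins together with Frizzled receptors, differed at their promoters. Lrp6 (chr6:134446476-134566965, minus strand) had a promoter fold of 18.8 in replicate 1, 27.8 in replicate 2 and 10.2 with the Active Motif antibody, with summits at −0.215, −0.229 and −0.174 kb from its 5' end. An intronic region 10.4 kb inside the gene had 6.53, 9.28 and 4.27 in the same order.

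Lrp5 (chr19:3584828-3686564, minus strand) had a promoter call in replicate 2 alone. That peak had a fold of 4.79 and a −log10 q of 4.55, its summit lay at −1.10 kb, and 27 bp of it fell inside the promoter window, which makes it the call nearest to the threshold of distance. The next peak of replicate 2, at −1.52 kb with a fold of 4.33, was just outside the window. The nearest peak to a Lrp5 start was 21.2 kb away in replicate 1, and as far in the Active Motif list. The shared regions of its window were in the flanks or at other genes' promoters, 8 regions in all. The strongest was at the promoter of Ppp6r3, a subunit of protein phosphatase 6, with 48.0 in replicate 1, 45.2 in replicate 2 and 23.4 with the Active Motif antibody, followed by the one at 1810055G02Rik with 16.5, 28.2 and 7.25.

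**Figure D4:**
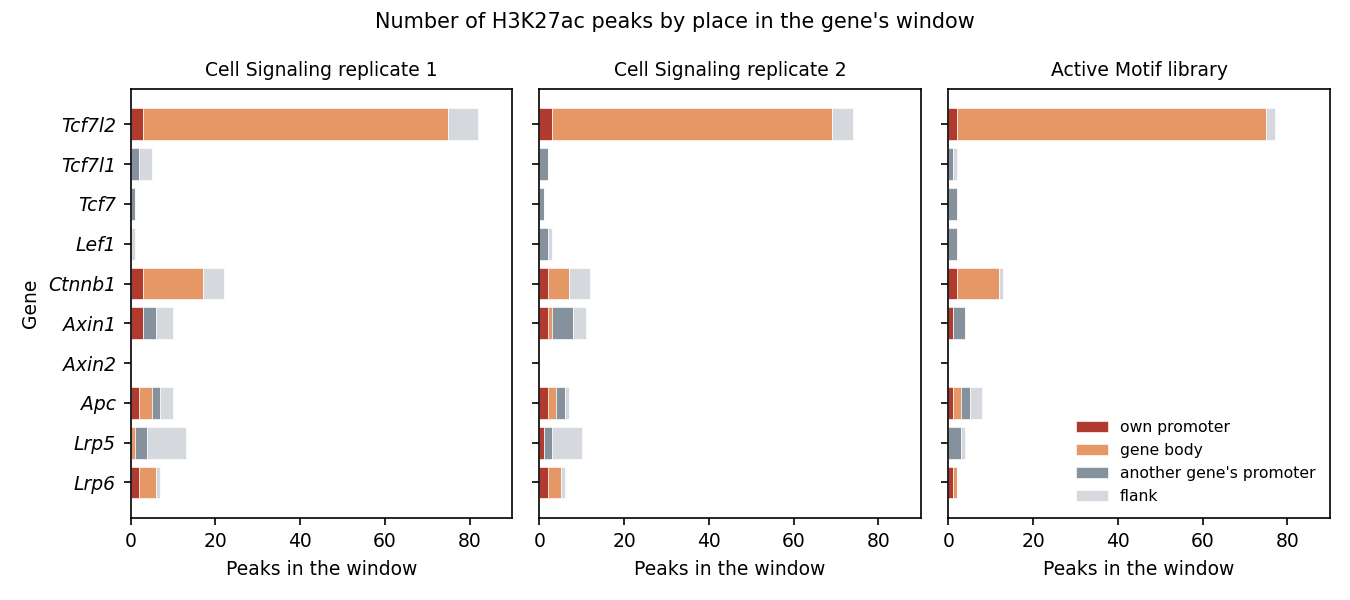
Bars give the number of peaks in each gene's window, split by place (own promoter, gene body, promoter of another protein-coding gene, flank), with 1 panel per library. The Tcf7l2 bars reach 82 peaks in replicate 1, 74 in replicate 2 and 77 with the Active Motif antibody, mostly gene body, followed by Ctnnb1 with 22, 12 and 13, and Axin2 has none.

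Over the 10 windows, shared Cell Signaling regions numbered 59, of which 10 were at the genes' own promoters, 22 in gene bodies, 10 at promoters of other genes and 17 in the flanks. For 38 of the 59 the nearest protein-coding start was that of the gene in question, and 25 of these were at Tcf7l2. An Active Motif peak lay in 30 of the 59 (50.8%), against 61.5% of all shared regions. Outside Tcf7l2 and Ctnnb1, gene body regions were limited to 1 at Apc and 1 at Lrp6.

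To place the 10 genes in their pathway, the promoters of 95 further Wnt pathway genes were read by role. Of these, 37 had a promoter peak in replicate 1, 37 in replicate 2 and 30 with the Active Motif antibody, and 30 had one in all 3. Those were 38.9%, 38.9%, 31.6% and 31.6% of the 95, against 48.2%, 49.2%, 41.3% and 41.2% of all protein-coding genes, so the lists as a whole stood below the share of all genes in each library. The lists differ in size, from 2 to 19 genes, and were not tested against each other.

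Of the Wnt ligands, 0 of 19 had a promoter peak in all 3 libraries, where 41.2% of all genes had one. Wnt7b, an epithelial ligand, had one in replicate 1 alone, with a fold of 3.84, in the library that also had peaks at 4 of 5 airway epithelial markers, and the part of such cells in this call was not tested. Wls, which escorts Wnt proteins to the cell surface, had 6.92 in replicate 1, 13.7 in replicate 2 and 5.12 with the Active Motif antibody, while Porcn, the acyltransferase that acts on Wnt proteins, had no promoter peak. Of the inhibitors of the pathway, 0 of 14 had a promoter peak in any library. Per library, the share of all protein-coding genes was 48.2% in replicate 1, 49.2% in replicate 2 and 41.3% with the Active Motif antibody. The inhibitors were secreted antagonists such as those of the Dkk and Sfrp families, and the intracellular Nkd1 and Nkd2, which bind Dishevelled.

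Of the receptors and coreceptors, 4 of 15 (26.7%) had a promoter peak in all 3 libraries, against 41.2% of all genes. The Frizzled receptor gene Fzd7 had a fold of 38.4 in replicate 1, 37.9 in replicate 2 and 13.6 with the Active Motif antibody, and Fzd4 had 23.4, 29.5 and 11.1. Lower folds were found at Fzd1, with 13.1, 21.9 and 8.10 in the same order. Lrp4, a relative of Lrp5 and Lrp6, had 39.2, 28.4 and 22.6, above Lrp6 in each library. Fzd5 (4.51) and Fzd8 (9.09) had a peak in replicate 2 alone. Among genes of receptor turnover, 0 of 9 had a peak in all 3: Znrf3, a ubiquitin ligase that removes Frizzled receptors, had 6.92 in replicate 1 and 7.63 in replicate 2, and its relative Rnf43 had 4.23 in replicate 1 alone.

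Further genes of the destruction complex and its regulators had a promoter peak in all 3 libraries in 11 of 14 cases (78.6%), against 41.2% of all genes. The kinase genes Gsk3b (50.4 in replicate 1, 45.8 in replicate 2, 17.5 in the Active Motif library) and Gsk3a (40.7, 48.0 and 28.1) had the highest folds of replicate 1 in this group. The others were the casein kinase genes Csnk1a1, Csnk1d and Csnk1e, the Dishevelled genes Dvl1, Dvl2 and Dvl3, the tankyrase genes Tnks and Tnks2, and Fbxw11, with folds of 5.77 (Dvl3) to 36.9 (Csnk1a1) in replicate 1. Amer1 and Btrc had a peak in both replicates and none in the Active Motif library, and Apc2 had none at all.

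Coactivators of β-catenin and corepressors of TCF/LEF factors were mostly acetylated too. Of the coactivators, 6 of 8 (75.0%, against 41.2% of all genes) had a peak in all 3 libraries: the acetyltransferase genes Ep300 (36.5 in replicate 1, 37.0 in replicate 2, 16.2 in the Active Motif library) and Crebbp (31.5, 30.6 and 14.1), together with Cdc73, Smarca4, Pygo2 and Bcl9. Bcl9l had one in both replicates only, and Pygo1 had none. Of the corepressors, 5 of 7 (71.4%) did: Tle1, Tle3, Tle4, Ctbp1 and Ctbp2, with folds of 16.9 to 26.9 in replicate 1. Tle3, a Groucho family corepressor, had 23.8 in replicate 1, 36.8 in replicate 2 and 23.4 with the Active Motif antibody. Ctnnbip1, an inhibitor of the binding of β-catenin to TCF factors, had 7.63 in replicate 2 alone, and Tle2 had no peak.

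Of 7 further genes known as Wnt targets in other tissues, 3 (42.9%) had a promoter peak in all 3 libraries, a share near the 41.2% of all genes, and each has many other regulators. Cd44, the hyaluronan receptor, had 71.1 in replicate 1, 57.0 in replicate 2 and 28.1 with the Active Motif antibody. Id2 had 41.9, 41.0 and 19.6, and Myc 26.5, 33.9 and 11.5. Ccnd1, which encodes cyclin D1, had 4.61 in replicate 1 alone, and Sp5, Mmp7 and Ascl2 had none.

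**Figure D5:**
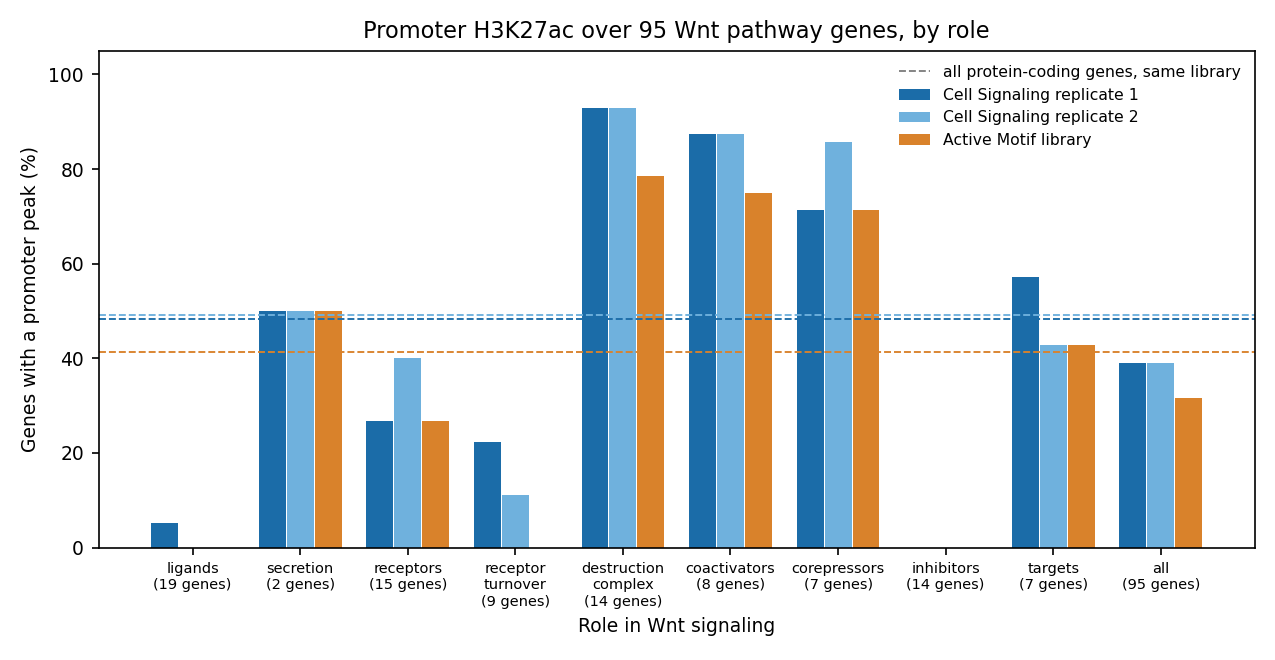
Bars give the share of genes in each Wnt role with a promoter peak (%), 1 bar per library, and dashed lines the share of all protein-coding genes in the same library (48.2%, 49.2% and 41.3%). Destruction complex genes, coactivators and corepressors stand above the lines in each library, ligands, receptors, receptor turnover genes and inhibitors below them, and the 2 secretion genes and 7 targets near them.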

How the data were processed

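AMs of wild-type mice were profiled by HT-ChIPmentation against H3K27ac. As the study describes it, adapter trimming (Cutadapt), alignment to mm10 (Bowtie2), removal of duplicates (Picard) and a mapping quality filter (samtools) came before MACS3, which called peaks for each library against input at a q-value of 0.05. For the Cell Signaling libraries, bcl2fastq is listed in the submitters' processing notes as version 2.20.0.422. Which sonicator served which library is not given in the sources used here. The deposited lists give for each peak the fold over background as a ratio at the summit, the −log10 of the p-value and q-value, and a score derived from the q-value, which was not used. They hold no read counts, so no depth or interval is given.

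The 10 genes, the pathway and marker lists and the motifs were chosen with earlier results of these data known, so no test was run, and folds and counts stand beside those of all genes. All 10 genes are named, as are the pathway genes with a peak in any library, the neighbours whose promoter held a shared region, and the strongest regions of each window. Hadh was named after its values were seen.

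Start sites were those of GENCODE vM21 basic transcripts plus each gene's 5' end (21755 genes, 44740 sites, 20 chromosomes). A promoter peak overlapped 1 kb either side of a start by at least 1 bp. Shared regions were merged Cell Signaling peaks holding both replicates. Motifs were searched in 200 bp around replicate 1 summits. Coordinates are 1-based, on mm10. Python 3.11.15, pandas 2.3.3, numpy 2.4.6 and pysam 0.24.0 were used, and the overlap code was tested on simulated data. Alternatives were promoter windows of 500 bp and 3 kb, the 5' end only, flanks of 25 kb, a −log10 q of at least 5, equal peak numbers, 50% mutual overlap, motif windows of 400 bp, replicate 2 summits, the nearest start, and leaving out each replicate.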

Additional observations from a re-analysis of the deposited data

How the results depend on the processing

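The number of genes with a promoter peak in all 3 libraries was 5 in each alternative except with annotated 5' ends alone, where it was 4 because Ctnnb1 left it. Leaving out a replicate gave 5 to 6 genes for the count over the Cell Signaling libraries. All 15 promoter folds recomputed with a 500 bp window stayed as printed, and the Lrp5 call of replicate 2 was lost, as it was at the stricter q. Peak counts moved with the threshold: at a −log10 q of at least 5 the 10 windows held 90 (replicate 1), 69 (replicate 2) and 72 (Active Motif) peaks, and with equal peak numbers 91 in replicate 1 and 83 in replicate 2. Shared regions numbered 26 when 50% of both peaks had to overlap and 38 when only those nearest to the gene counted. With either replicate left out, 126 to 151 peaks took their place. With fewer regions at the stricter q, the TCF/LEF share was 4.76% of 21. No paired analysis was run, since the results come from no test. Limits: each list is 1 library, peak calls depend on depth, and the Active Motif antibody has 1 library.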
